A study of Rattus norvegicus with 6 samples.

Results

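A set of 10 genes that build the node of Ranvier, the paranode next to it and the contact between axon and Schwann cell were followed in the rat sciatic nerve before and after a crush injury. The genes were chosen by symbol: Nfasc, Gldn, Nrcam, Cntn1, Cntn2, Cntnap1, Cntnap2, Hapln2, Tnr and Ank3. Of these 10 genes, 9 were found among the 30957 genes counted, and Cntnap2 was not analysed here. All 9 passed the filter on low counts, as did 15195 genes in all. The rats were Sprague-Dawley rats of 1 month. The left sciatic nerve was clamped in its middle segment with hemostatic forceps, and nerves were taken 4 days (D4) or 7 days (D7) later. The control rats are called normal controls in the sample labels and are described in the methods as having had the operation without the clamp. Each group held 2 rats with 1 library each, named a and b, and no label says that the letters pair rats between groups.

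A myelinated axon is bare only at the node of Ranvier, where sodium channels are packed on a scaffold of ankyrin and spectrin and the action potential is renewed. In peripheral nerve the node is put together from outside: gliomedin and NrCAM from the microvilli of Schwann cells bind neurofascin on the axon, and neurofascin in turn holds ankyrin G. Beside the node, the paranodal loops of myelin grip the axon through glial neurofascin and the axonal pair contactin and Caspr, and beyond them lies the juxtaparanode with its potassium channels. After a crush, the axon beyond the lesion degenerates, Schwann cells give up their myelin, and nodes are built anew where axons regrow and are myelinated again. The cell bodies of the axons lie outside the nerve, so the transcripts of neurons are mostly made outside the tissue sampled.

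The main pattern of the 9 genes differed by gene and by day. Nfasc fell on both days, Gldn fell on D4 and was higher again on D7 than on D4, and Nrcam rose on D4 and was lower again on D7. Of the 9 genes, 4 were downregulated and 1 was upregulated in the control vs D4 comparison, with calls made at an adjusted p-value below 0.05 and at least a 2-fold change. Among all genes tested on D4, 21.9% were called, 10.7% as lower and 11.2% as higher. In the control vs D7 comparison, 3 of the 9 genes were downregulated and 0 were upregulated, with 18.8% of all genes called, 9.02% as lower and 9.83% as higher. Between D4 and D7, 2 of the 9 genes were called, 1 in each direction, against 2.18% of all genes, 0.494% as lower and 1.68% as higher on D7. The control libraries are shared by the D4 and D7 comparisons, which are therefore not independent of each other. In whole nerve, fewer cells of a type and less RNA per cell cannot be told apart.

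Fragment counts of genes summed to between 18727255 and 25350886 per library, and levels are given as CPM, counts scaled to library size, after scaling with trimmed mean of M values (TMM) factors of 0.863 to 1.08. The CPM ranges of the injured and control libraries did not overlap for 7 of the 9 genes on D4 and for 7 on D7, but this was also true of 76.2% and 71.9% of all genes, and for 6 of the 9 genes between D4 and D7 against 60.6% of all genes. The median log2 fold change of the 9 genes was -1.37 on D4 and -1.55 on D7, beside -0.04 and 0.01 over all genes tested. All 9 fitted values were below 0 on D7, but those of Nrcam and Ank3 were above 0 without the TMM factors. Without those factors the share of called genes that were higher went from 51.2% to 69.3% on D4 and from 52.1% to 70.4% on D7. The summed levels of the markers of myelinating Schwann cells and of immature or repair Schwann cells differed between the groups. The 7 myelinating markers summed to 101090 and 68646 CPM in control a and b, 3032 and 3565 CPM on D4 and 16121 and 9934 on D7, with 6 of the 7 below both control libraries on each day. The 6 repair markers summed to 382 and 383 CPM in control, 2548 and 2701 on D4 and 1878 and 1702 CPM on D7. On D4, 4 of these 6 lay above both control libraries, led by Ngfr with 22.9 and 20.9 CPM in control and 1864 and 1979 CPM on D4, and 2 lay below them, Ncam1 and L1cam. Their part in the results was not tested.

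To show the DNA in front of genes that were downregulated on D4, the upstream sequence of Gldn, Nfasc and Hapln2 is given 5′ to 3′ on the strand of the gene, as the 250 bases before the start site in RefSeq (build GRCr8). RefSeq entries were matched for 7 of the 10 genes, with 8 start sites in all, and none was matched for Nrcam, Cntnap1 and Cntnap2. The window searched for motifs ran from 250 bases before to 50 bases after each start site, on both strands. The motifs were the SOX cores ACAAAG and ACAATG, the EGR core GNGGGCG and the AP-1 site TGANTCA, chosen because factors of these families act in Schwann cells, and no pair of these motifs shares bases in the matches found. Capitals in the Hapln2 sequence mark a match to each SOX core, which begin 94 and 88 bases before the start site.
Gldn, chr8:63575020-63575269, plus strand: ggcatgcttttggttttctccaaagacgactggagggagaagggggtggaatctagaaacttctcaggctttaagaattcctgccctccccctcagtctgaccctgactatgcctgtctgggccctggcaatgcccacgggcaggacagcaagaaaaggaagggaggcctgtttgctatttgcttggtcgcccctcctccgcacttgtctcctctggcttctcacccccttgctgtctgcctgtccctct
Nfasc, first of 2 start sites, chr13:46701165-46701414, minus strand: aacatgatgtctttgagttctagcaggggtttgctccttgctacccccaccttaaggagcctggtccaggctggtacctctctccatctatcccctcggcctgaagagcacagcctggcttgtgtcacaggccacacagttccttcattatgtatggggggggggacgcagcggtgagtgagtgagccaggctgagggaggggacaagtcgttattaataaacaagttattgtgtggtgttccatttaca
Hapln2, chr2:175794439-175794688, minus strand: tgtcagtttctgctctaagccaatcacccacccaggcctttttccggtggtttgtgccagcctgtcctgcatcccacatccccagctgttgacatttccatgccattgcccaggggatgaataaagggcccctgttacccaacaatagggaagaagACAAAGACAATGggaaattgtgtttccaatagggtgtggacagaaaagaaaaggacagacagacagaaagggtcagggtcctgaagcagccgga
A SOX core was present in 29.1% of the 33469 promoter windows of RefSeq, ACAAAG in 18.8% and ACAATG in 13.2%. Cntn2 held a match to the EGR core, present in 28.7% of all windows, and Cntn1 a match to the AP-1 site, present in 7.33%. The windows of Gldn, Tnr and Ank3 and both windows of Nfasc held none of these letters.

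The first genes are the adhesion molecules that assemble the node. Gldn (ENSRNOG00000024082, chromosome 8:58870516-58914603 of Rnor_6.0, the build of the deposited coordinates) encodes gliomedin, the matrix protein on Schwann cell microvilli that clusters neurofascin and sodium channels. Its level was 369 and 285 CPM in control a and b, 10.1 and 17.0 CPM in D4 a and b, and 205 and 117 CPM in D7 a and b. The 3 groups did not overlap, with D4 far below the others and D7 between D4 and control. Gldn was 24.2-fold lower on D4 than in control, a log2 fold change of -4.59 ± 0.39 (SE), with an adjusted p-value of 0.000431 in the quasi-likelihood test of edgeR. On D7 it stood at 49.2% of the control mean, against 4.13% on D4. The log2 difference from control on D7 was -1.02 ± 0.34 with an adjusted p-value of 0.0566 and was not called, but it was called with DESeq2 (-1.03), with no filter on low counts (-1.02) and when D7 a was left out (-1.45). Its adjusted p-value over 12 alternatives ran from 0.00478 to 0.175.

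The return of Gldn between the injured groups was tested directly. Gldn was 11.9-fold higher on D7 than on D4, with a log2 fold change of 3.57 ± 0.37 and an adjusted p-value of 0.0134. Without D4 a the log2 difference was 3.24 and without D4 b it was 4.00. Neither was called with the 1 library that was then left on D4, nor was any other gene tested. In fragments, Gldn had 7165 and 4724 in control, 245 and 459 on D4 and 4356 and 2368 on D7, so that the fewest in any library were 245.

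**Figure D1:**
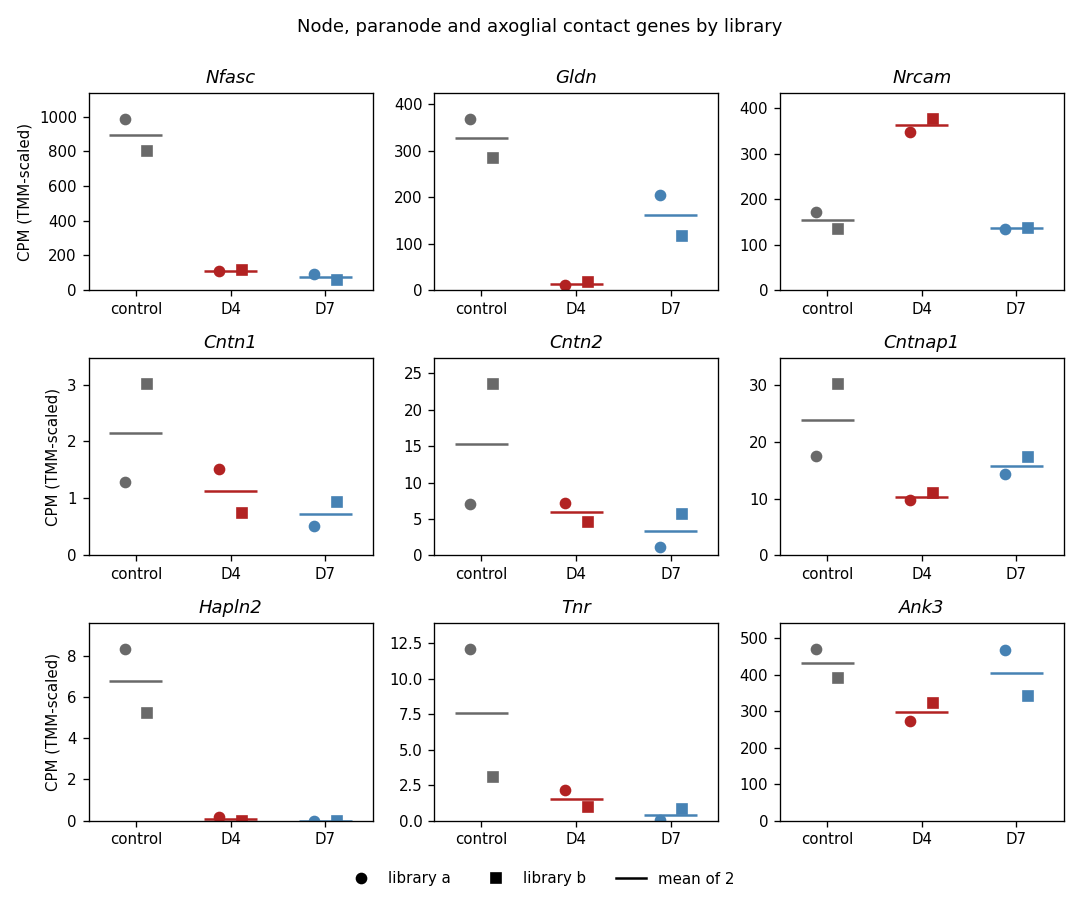
Level of each of the 9 genes in every library, in TMM-scaled CPM on a linear axis that starts at 0, for control, D4 and D7. Circles are library a, squares are library b and the lines are means of 2, and the panels show Gldn at 10.1 and 17.0 CPM on D4 and at 205 and 117 CPM on D7, while Nfasc stayed at or below 116 CPM in all 4 injured libraries.

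Nfasc (ENSRNOG00000030515, chromosome 13:49335408-49522415) encodes neurofascin, whose axonal form gathers the nodal channels and whose glial form anchors the paranodal loops. Nfasc had 988 and 804 CPM in control a and b, 110 and 116 CPM in D4 a and b, and 93.1 and 57.6 CPM in D7 a and b. Every injured library lay below both control libraries, and both D7 libraries lay below both D4 libraries. The log2 fold change was -2.99 ± 0.25 on D4, a 7.94-fold decrease with an adjusted p-value of 0.000403. On D7 it was -3.57 ± 0.25, an 11.9-fold decrease with an adjusted p-value of 0.000448. Between D4 and D7 the log2 difference was -0.58 ± 0.23 with an adjusted p-value of 0.191, which did not pass. The counts are per gene, so the axonal and glial forms of neurofascin cannot be told apart.

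In contrast to Gldn, Nfasc showed no return by D7. It stood at 12.6% of the control mean on D4 and at 8.41% on D7. The ratio of Gldn to Nfasc in FPKM, fragments scaled to transcript length and library total, was 1.64 and 1.56 in control, 0.402 and 0.646 on D4 and 9.67 and 8.95 on D7. It was thus near 1.6 in both control libraries, below 1 in both D4 libraries and near 9 in both D7 libraries.

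Nrcam (ENSRNOG00000004067, chromosome 6:64789940-64864996) encodes NrCAM, an adhesion molecule of the neurofascin family that is found on axons and on Schwann cell microvilli and binds gliomedin. Its level was 172 and 135 CPM in control a and b, 347 and 377 CPM in D4 a and b, and 135 and 137 CPM in D7 a and b. Both D4 libraries were above all others, and the D7 libraries overlapped with control. Nrcam was upregulated 2.36-fold on D4, with a log2 fold change of 1.24 ± 0.13 and an adjusted p-value of 0.000962, and was the only one of the 9 genes called higher in any comparison with control. On D7 the log2 difference from control was -0.18 ± 0.13 with an adjusted p-value of 0.331, and without control a it was 0.01. From D4 to D7 Nrcam fell 2.66-fold, with a log2 fold change of -1.41 ± 0.13 and an adjusted p-value of 0.0117. This call was lost without D4 a (-1.47), without D4 b (-1.35) or without D7 a (-1.41), while the size of the difference moved little. In the fits without D4 a or without D4 b, all genes tested lost their call.

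Ank3 (ENSRNOG00000053288, chromosome 20:20105047-20480623) encodes ankyrin G, the adaptor that ties neurofascin and sodium channels to the spectrin skeleton at the node, and it is also made by many other cells. Ank3 had 470 and 392 CPM in control a and b, 274 and 323 CPM in D4 a and b, and 468 and 341 CPM in D7 a and b. The D4 libraries were the lowest and did not overlap with control, whereas D7 overlapped with control. The log2 fold change was -0.53 ± 0.19 on D4 with an adjusted p-value of 0.0609 and -0.09 ± 0.19 on D7 with an adjusted p-value of 0.723. Neither day was called, and the D7 mean was 93.8% of the control mean. On D7 the log2 difference was 0.04 without control a and 0.12 without D7 b.

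**Figure D2:**
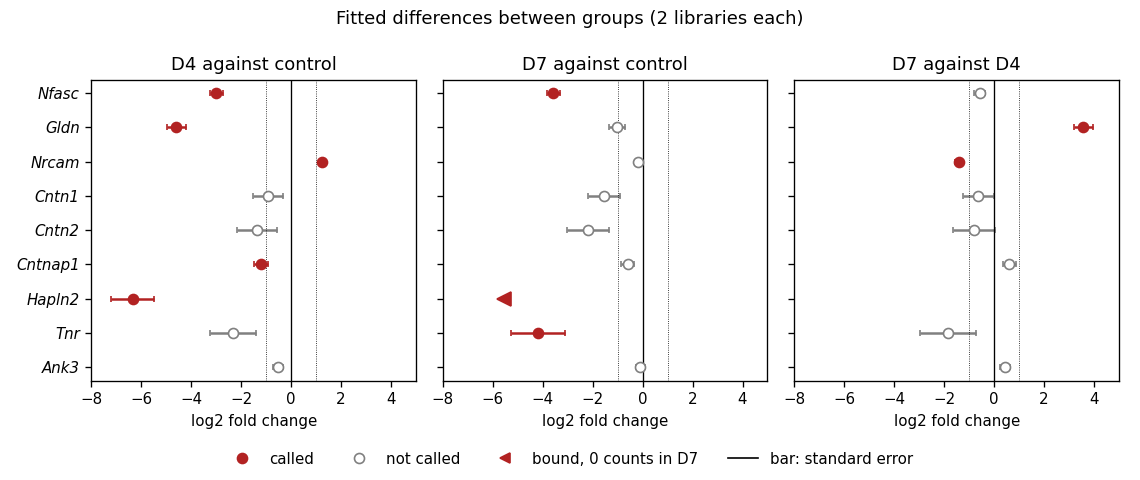
Fitted log2 fold change of each gene (horizontal axis) in the 3 comparisons, with bars for the standard error and dotted lines at a 2-fold change. Filled red points were called, and the triangle is the bound for Hapln2 on D7, where it had 0 counts, while Hapln2 is left out of the D7 against D4 panel. Gldn and Nrcam are called on opposite sides of 0 both on D4 (-4.59 and 1.24) and between D4 and D7 (3.57 and -1.41).

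The axonal partners at the paranode came next. Cntnap1 (ENSRNOG00000020277, chromosome 10:89089646-89103614) encodes Caspr, the axonal protein of the paranodal junction. Cntnap1 had 17.6 and 30.3 CPM in control a and b, 9.69 and 11.0 CPM in D4 a and b, and 14.3 and 17.3 CPM in D7 a and b. Both D4 libraries lay below all others, and D7 lay between D4 and control. Cntnap1 was downregulated on D4 with a log2 fold change of -1.21 ± 0.27 and an adjusted p-value of 0.0143. The D4 value was close to the 2-fold limit, and it fell short of that limit without TMM factors (-0.92) or without control b (-0.76). It was also not called without D4 a (-1.12) or without D4 b (-1.30). In these 2 fits the change was beyond 2-fold, and the adjusted p-value did not pass. On D7 it was 66.1% of the control mean, with a log2 difference of -0.59 ± 0.27 and an adjusted p-value of 0.130.

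Cntn1 (ENSRNOG00000004438, chromosome 7:133400485-133586677) encodes contactin, the partner that carries Caspr to the axon surface. It was sparse, with 25 and 50 fragments in control, 37 and 20 on D4 and 11 and 19 on D7. In CPM these were 1.29 and 3.01 in control, 1.52 and 0.739 on D4 and 0.516 and 0.940 on D7. Control and D4 overlapped with control, and the D7 libraries lay below control. The log2 differences from control were -0.92 ± 0.59 on D4 (adjusted p-value 0.249) and -1.55 ± 0.63 on D7 (adjusted p-value 0.0994), and neither was called. The control libraries differed 2.34-fold from each other in CPM.

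Cntn2 (ENSRNOG00000009033, chromosome 13:49285310-49313940) encodes the contactin TAG-1, which joins Caspr2, the product of Cntnap2, at the juxtaparanode and is present on both axon and glia. It lies 21467 bases from Nfasc on the same chromosome. Cntn2 had 7.00 and 23.6 CPM in control a and b, 7.22 and 4.58 CPM in D4 a and b, and 1.13 and 5.64 CPM in D7 a and b. The control libraries differed 3.37-fold from each other, D4 overlapped with control and D7 did not. The log2 differences were -1.37 ± 0.80 on D4 (adjusted p-value 0.208) and -2.18 ± 0.84 on D7 (adjusted p-value 0.0873), and neither was called. Without control a (-2.81) or without D7 b (-3.75) Cntn2 was called on D7, and over 12 alternatives the adjusted p-value ran from 0.0343 to 0.382. Its neighbour Nfasc differed only 1.23-fold between the same control libraries and was higher in a, where Cntn2 was lower.

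The neuronal marker list was read beside these axonal genes. Its 12 markers summed to 119 and 98.9 CPM in control, 112 and 134 CPM on D4 and 290 and 393 CPM on D7, all 12 were detected in at least 1 library, and the nuclear marker Rbfox3 had at most 1 fragment in any library. On D4, 7 of the 12 markers lay below both control libraries, 2 lay above them and 3 overlapped. On D7, 6 of the 12 lay below, 4 lay above and 2 overlapped. The list thus had no single direction on either day, and its D7 sum was mainly the neurofilament genes Nefl and Nefm. Stmn2, for example, had 9.37 and 7.24 CPM in control and 2.02 and 1.88 CPM on D7. The count of Nefl went from 188 and 177 fragments in control to 20 and 67 on D4 and 2791 and 4075 on D7, and Nefl and Stmn2 were singled out after their values were seen.

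The last members are proteins of the perinodal matrix that are best known from the central nervous system. Hapln2 (ENSRNOG00000018870, chromosome 2:187396349-187401786) encodes the link protein Bral1, which fastens hyaluronan and proteoglycans around central nodes. It had 162 fragments in control a and 87 in control b, 4 and 0 in D4 a and b, and 0 in both D7 libraries. Both control libraries were far above all 4 injured libraries, which lay at or near 0. On D4 control exceeded D4 by a ratio of 88.9, with a 95% exact interval of 34.3 to 329 that covers counting error only, and the adjusted p-value was 0.00384. On D7 Hapln2 was at least 47.0-fold lower than in control, computed against the 3 fragments per library that a count of 0 allows, and the adjusted p-value was 0.00397. Its upstream sequence, with a match to each SOX core in capitals, is given above.

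Tnr (ENSRNOG00000002468, chromosome 13:77485113-77678437) encodes tenascin-R, a matrix glycoprotein of central nodes that binds sodium channels and contactin. Tnr had 235 fragments in control a and 51 in control b, 52 and 25 in D4 a and b, and 1 and 16 in D7 a and b. In CPM these were 12.1 and 3.07 in control, 2.13 and 0.924 on D4 and 0.0470 and 0.792 on D7. All injured libraries lay below both control libraries, but the control libraries themselves differed 3.94-fold. The log2 fold change was -4.19 ± 1.09 on D7 with an adjusted p-value of 0.0279, which was called, and -2.32 ± 0.93 on D4 with an adjusted p-value of 0.0885, which was not. The D7 call was lost without control a (-2.88), D4 a (-4.18), D4 b (-4.18) or D7 a (-3.23), with the letter as a replicate block (-3.88) and in a fit of control and D7 alone (-4.18), and the adjusted p-value over 12 alternatives ran from 0.000184 to 0.106. The D4 difference was called with DESeq2 (-2.29) and without control b (-2.99), with adjusted p-values from 0.0432 to 0.466 over its alternatives.

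The oligodendrocyte list was read beside these low genes and had no single direction. On D4, 1 of its 6 markers lay above both control libraries, 1 lay below them and 4 overlapped. On D7 these were 0, 1 and 5. Of the 6 oligodendrocyte markers, which summed to 1172 and 832 CPM in control, 951 and 1005 on D4 and 1456 and 1048 on D7, nearly all of the sum was Cnp, which Schwann cells express as well. The marker Mobp, singled out after its values were seen, had 237 and 73 fragments in control, 0 and 0 on D4 and 10 and 0 on D7, and it was the only one of the 6 below both control libraries on either day. Olig1 lay above both on D4, with 9 and 4 fragments in control and 23 and 15 on D4. Mog had at most 9 fragments, Opalin at most 4 and Olig2 at most 3 in any library, and Cnp overlapped with control. The 4 adipocyte markers, read beside Tnr and Cntn2, summed to 1255 and 1034 CPM in control, 296 and 148 on D4 and 6.81 and 422 on D7, with all 4 below both control libraries on each day. Library D7 a was the lowest for the adipocyte markers, for Tnr, for Cntn2 and for Cntn1. Between the control libraries the order differed. The adipocyte sum and Tnr (12.1 and 3.07 CPM) were higher in control a. Cntn2 (7.00 and 23.6 CPM) and Cntn1 (1.29 and 3.01 CPM) were higher in control b. The part of these cells in the results was not tested.

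Per length of transcript, Gldn had the highest level of the 9 genes in control, with 134 and 106 FPKM. Nfasc followed with 81.3 and 67.8 FPKM, then Ank3 with 27.5 and 23.5 FPKM and Nrcam with 16.8 and 13.6 FPKM. These 4 genes and the next one were separated in both control libraries. Next came Hapln2 (5.18 and 3.34 FPKM), Cntnap1 (2.83 and 4.99) and Cntn2 (1.20 and 4.14), each overlapping with the next of these, as did Tnr (0.983 and 0.256) and Cntn1 (0.268 and 0.642) with each other. On D4 the order was changed, with Nrcam the highest at 41.9 and 45.6 FPKM, Ank3 next at 19.8 and 23.4, Nfasc at 11.2 and 11.8 and Gldn at 4.50 and 7.60. On D7 Gldn led again with 91.3 and 53.1 FPKM, ahead of Ank3 with 33.8 and 25.0, Nrcam with 16.2 and 16.8 and Nfasc with 9.44 and 5.93. The FPKM values imply a single length per gene, such as 2383 bases for Gldn and 10488 for Nfasc. The order of the genes and the ratio of Gldn to Nfasc rest on these lengths.

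The sum of the 9 genes was 270 and 224 FPKM in control, 81.6 and 91.8 on D4 and 154 and 106 on D7. These values carry no TMM factor. In TMM-scaled CPM, not scaled to length, the sum was 2046 and 1681 in control, 762 and 850 on D4 and 916 and 678 on D7, where D4 and D7 overlapped. The shares that follow are of the FPKM sum. Gldn made up 49.5% and 47.2% of this sum in control, 5.51% and 8.28% on D4 and 59.3% and 50.2% on D7. Nfasc took 30.2% and 30.3% in control, 13.7% and 12.8% on D4 and 6.13% and 5.61% on D7. Nrcam held 6.22% and 6.05% in control, 51.3% and 49.7% on D4 and 10.5% and 15.9% on D7. In these shares, the sum was mostly Gldn and Nfasc in control, mostly Nrcam and Ank3 on D4, and mostly Gldn without much Nfasc on D7.

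**Figure D3:**
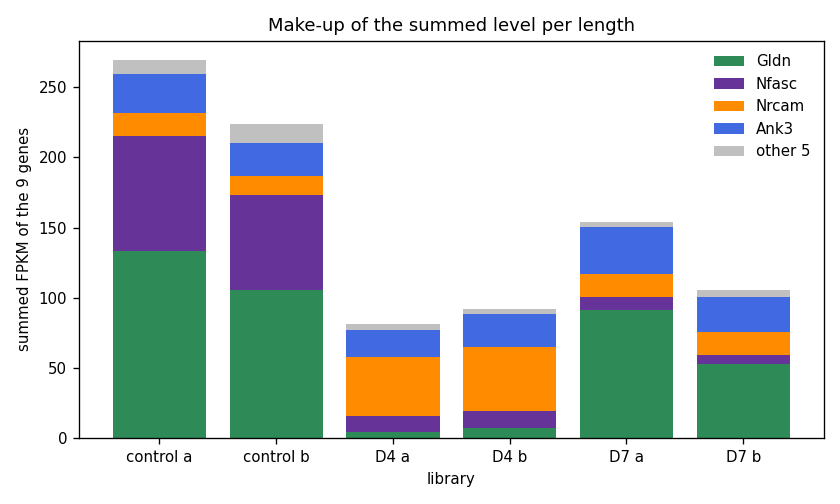
Summed FPKM of the 9 genes in each library (bars, linear axis from 0), split into Gldn, Nfasc, Nrcam, Ank3 and the other 5 genes. The bars are tallest in control (270 and 224) and lowest on D4 (81.6 and 91.8), where Nrcam takes 51.3% and 49.7%, and Gldn takes 59.3% and 50.2% on D7.

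For each member, the genes with the most similar pattern were found by the root mean square distance of log2 CPM, each relative to its control mean, over the 6 libraries. The values are descriptions and carry no test. For Gldn the nearest genes were Col28a1 (0.32), Oprk1 (0.37) and Fam212b (0.48), and Oprk1 had log2 fold changes of -4.72 on D4 and -0.56 on D7. For Nfasc, Robo3 (0.35) and Grik3 (0.36) were among the 3 nearest, with Robo3 at -3.47 on D4 and -4.16 on D7. For Nrcam they were Car14 (0.09), Ier3 (0.17) and Plekhb2 (0.21), with Car14 at 1.20 on D4 and -0.16 on D7. Ank3 was closest to Mtcp1 (0.07), Ccdc138 (0.07) and Tp53bp2 (0.08), and Cntnap1 to Pcdhb2 (0.09), Gpr21 (0.11) and Gprasp1 (0.13). The nearest genes of the other members were Pygm, Ptp4a3 and Rn60_1_0435.2 for Cntn1 (0.13 to 0.22), Nov, Doc2b and Stc1 for Cntn2 (0.26 to 0.36), Pck1, Calml3 and Ankef1 for Tnr (0.58 to 0.62) and Slco4c1, Myh7 and C1qtnf4 for Hapln2 (0.85 to 1.39).

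The members were then set beside 69 other genes of the same structures, of which 68 were found and 56 were tested. In the control vs D4 comparison 6 of the 56 were higher and 14 lower, or 35.7% called, with a median log2 fold change of -0.68. In the control vs D7 comparison 7 were higher and 10 lower, or 30.4%, with a median of -0.39. Between D4 and D7, 8 were higher and 1 lower on D7, or 16.1%. In this last comparison DESeq2 also called 9 with all libraries. The edgeR calls of this comparison were lost without D4 a or without D4 b, as they were for all genes tested. Such a loss is therefore not particular to these lists. The shares called over all genes were 21.9%, 18.8% and 2.18% in these 3 comparisons.

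At the node itself, 9 of 13 other genes were tested and 1 was called, Kcnk2, a potassium channel gene with log2 fold changes of -1.42 on D4 and -1.16 on D7. The sodium channel and nodal matrix genes of this list were not called on either day. Among 10 genes of Schwann cell microvilli, the structure on which gliomedin sits, the proteoglycan gene Gpc1 rose with log2 fold changes of 3.46 on D4 and 2.27 on D7. Dmd, the dystrophin gene (-1.32), and its relative Utrn (-1.21) fell on D4, and Ezr, the gene of the cytoskeletal linker ezrin, rose on D7 (1.13). From D4 to D7 Dmd rose (1.03) and Gpc1 fell (-1.19), and these were the only ones of the 10 called.

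At the paranodal loops, 4 of 11 tested genes fell on D4, 3 fell on D7 and 0 rose on either day. Cldn19, a claudin of the tight junctions between the loops, had 428 and 281 CPM in control, 4.68 and 7.79 CPM on D4 and 175 and 116 CPM on D7. As with Gldn, the D4 libraries were far below the others and the D7 libraries lay between D4 and control. The log2 fold changes of Cldn19 were -5.82 on D4 and -1.28 on D7, and 4.54 from D4 to D7, all of them called. The E-cadherin gene Cdh1 fell on both days (-4.21 and -3.08), as did Gjb1, which encodes the gap junction protein connexin of the loops (-2.29 and -1.97).

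At the juxtaparanode, 2 of 10 genes rose and 4 fell on each day. The potassium channel genes Kcna1 (-5.14 and -3.03) and Kcna2 (-5.50 and -2.55) fell on D4 and D7 and were higher on D7 than on D4 (2.11 and 2.95). The secreted ligand genes Lgi2 (3.46 and 2.60) and Lgi3 (1.03 and 2.03) rose on both days. Along the internode, Mag, the myelin-associated glycoprotein gene that was also in the myelinating marker list, fell on D4 (-6.72) and was higher on D7 than on D4 (5.92). Its difference from control on D7 was -0.80 and was not called. Cadm3, an adhesion gene of axon and glia contact, fell on both days (-3.92 and -2.89), and Cadm1 rose on D4 (1.04).

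Of 10 tested relatives of the members, Tnc, the gene of tenascin-C, rose on both days (2.48 and 2.04), while Tnxb fell on D7 (-1.10). The tenascin gene Tnn had 2 and 0 fragments in control, 1092 and 264 on D4 and 110 and 172 on D7, with adjusted p-values of 0.00285 and 0.0119. Tnc and Tnn were thus called higher on both days, while Tnr was called lower on D7. The other families held no called gene on D4, and on D7 the only further call was Chl1, an NrCAM relative, with a log2 fold change of 1.29. On D4 Chl1 missed the 2-fold limit narrowly, at 0.999 with an adjusted p-value of 0.00213. Its difference between D4 and D7 was 0.29 and was not called.

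**Figure D4:**
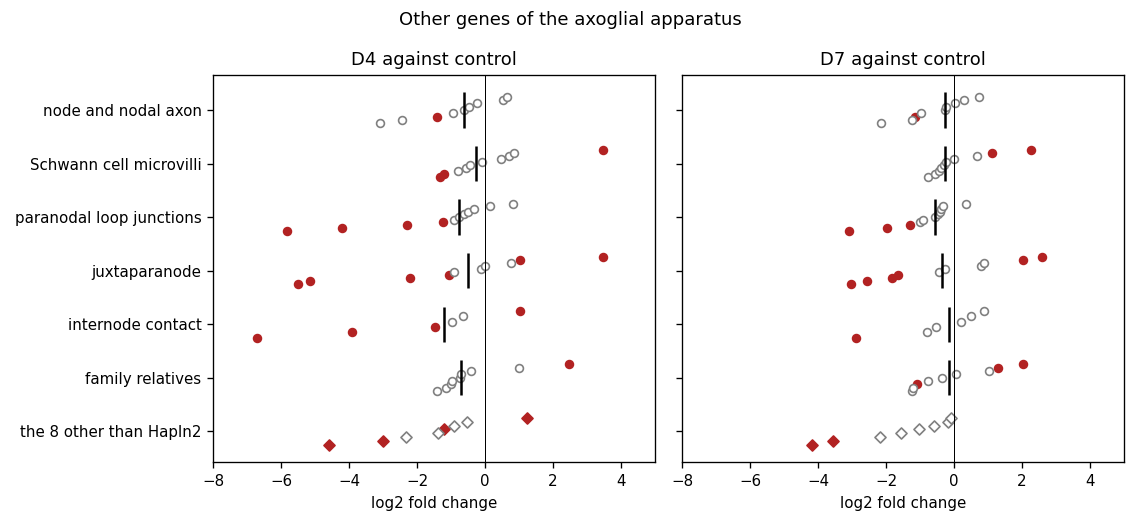
Log2 fold changes on D4 and on D7 (horizontal axes) of the tested genes in 6 lists of the axoglial apparatus, with called genes filled in red and list medians as black bars, and with 8 members as diamonds in the lowest line. Hapln2 and Tnn are not drawn because a group lay near 0 counts, and the internode list holds the lowest value on D4, Mag at -6.72.

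Long noncoding RNA (lncRNA) transcripts at the same loci were also examined. Of 22721 lncRNA transcripts, 22 overlapped the span of a member, 14 of them at Ank3, and 16 were tested. On D4 2 of these 16 were called and on D7 2 were called, all lower and all at Hapln2, whereas 10.1% of all lncRNAs were called on D4, 4.87% as lower, and 5.79% on D7, 2.79% as lower. NONRATT016552.2 (chromosome 2:187398013-187401796) had 83 fragments in control a and 50 in control b, 2 and 0 in D4 a and b and 0 in both D7 libraries. NONRATT016553.2 (chromosome 2:187398144-187401804) had 33 and 29 fragments in control and 0 in all 4 injured libraries. Both followed the order of Hapln2 itself, with which they share most of their span, and since use of the strand in counting was not stated, fragments of the gene and of these transcripts cannot be told apart.

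On D4 NONRATT016552.2 was lower by a ratio of 74.4 (95% exact interval 20.2 to 621, counting error only) with an adjusted p-value of 0.0232. It was at least 23.5-fold lower on D7, with an adjusted p-value of 0.0264. NONRATT016553.2 was at least 11.5-fold lower on D4 and at least 11.0-fold lower on D7, with adjusted p-values of 0.0223 and 0.0321. Without control a, control b or the injured library a of the day, edgeR called 0 lncRNAs at members on either day, with 3 to 5 at an unadjusted p-value under 0.05, and without the injured library b it called 1 on D4 and 0 on D7, whereas DESeq2 called 3 on each day with all libraries. At Nfasc, NONRATT008698.2 (chromosome 13:49357962-49358710, inside the gene) had 131 and 91 fragments in control, 1 and 23 on D4 and 16 and 8 on D7. All injured libraries were below control, but its log2 fold changes of -3.39 ± 0.97 and -3.29 ± 0.97 had adjusted p-values of 0.0862 and 0.108 and were not called. At Ank3, 12 lncRNAs were tested and 0 were called by edgeR on either day, with unadjusted p-values under 0.05 for 0 on D4 and 1 on D7. These 12 and NONRATT008698.2 lie inside their genes. With the use of the strand not stated, their fragments may likewise not be separable from those of the gene. Between D4 and D7, 0 of the 16 were called by edgeR or DESeq2 and 1 had an unadjusted p-value under 0.05, against 0.249% of all lncRNAs called.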

How the data were processed

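RNA of sciatic nerve from 6 Sprague-Dawley rats, 2 in each of the control, D4 and D7 groups, was analyzed. According to the submitters' processing notes and the study's methods, the authors mapped reads to Rnor_6.0 with HISAT2 2.0.4 after removing ribosomal reads, and counted fragments with StringTie 1.3.0. The deposited counts are whole numbers per gene or per lncRNA transcript and had not been normalized. The deposited FPKM values of genes, computed by the authors, match counts divided by transcript length and by the library's gene total, without a TMM factor. They were used to compare levels between genes, for the sums, shares and ratios of members in each library, and as a minimum for naming genes. The authors' edgeR results were not used.

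After filtering with filterByExpr and TMM scaling, edgeR 4.0.16 in R 4.3.3 was used for quasi-likelihood tests, with all 6 libraries in 1 fit and with genes and lncRNAs apart. P-values were adjusted by Benjamini-Hochberg over all features tested, at a threshold of 0.05 with at least a 2-fold change, and are two-sided. A standard error is the size of the log2 fold change over the root of its F statistic. The p-values rest on the spread between the 2 rats within each group, estimated over the 3 groups together and with information shared across genes. Log2 CPM of libraries of 1 group correlated across genes at 0.973 to 0.987. The biological coefficient of variation was 0.181 for genes and 0.399 for lncRNAs. Where a group held 0 counts, 3 counts per library gave the bound. Intervals are exact at 95% and cover counting error only. The nearest genes were taken among genes with a mean of at least 1 CPM, with a pseudocount of 0.05 CPM. The members and gene lists were chosen with earlier results of these data known. Named besides the members were, in each list at each day, up to 2 called genes with the largest change in each direction and a mean FPKM of at least 1, the 3 nearest genes of each member, and lncRNAs called at a member. Of the nearest genes, 1 is not reported here. NONRATT008698.2, Nefl, Nefm, Stmn2, Rbfox3, Ngfr, Ncam1, L1cam, Cnp, Mobp, Mog, Opalin, Olig1, Olig2 and Chl1 were named after their values were seen. Alternatives were DESeq2 1.42.0, other scaling factors, no filter, other thresholds, a fit without the remaining group, a block for the library letter and leaving out each library. The fits were tested on simulated data. Plots were drawn with matplotlib 3.10.9, and tables were made with pandas 2.3.3 and scipy 1.17.1 under Python 3.11.15.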

Additional observations from a re-analysis of the deposited data

Results flagged for a closer look

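The D4 and D7 effects differed from each other by a direct test for 2 of the 9 genes. Gldn was higher on D7 than on D4 by 3.57 on the log2 scale (adjusted p-value 0.0134), with both D7 libraries above both D4 libraries. Nrcam changed by -1.41 from D4 to D7 (adjusted p-value 0.0117), with both D7 libraries below both D4 libraries. With 1 D4 library left out, neither passed the threshold, nor did any other gene tested.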

How the results depend on the processing

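Of 322 alternative values for the log2 fold changes of the members, 295 kept their direction and their side of the threshold, 15 lost a call, 7 gained one and 5 changed sign. The sign changed on D7 for Nrcam without TMM factors (0.12) and without control a (0.00633), and for Ank3 without TMM factors (0.20), without control a (0.04) and without D7 b (0.12). Over the fits with 1 library left out, Nrcam on D7 ran from -0.34 to 0.00633 and Ank3 from -0.31 to 0.12. Without TMM factors the median of all genes moved to 0.25 on D4 and 0.31 on D7, which is above those Nrcam and Ank3 values. When the 2-fold change itself was tested, 3 members were called on D4 and 1 between D4 and D7. In the same setting 13, 9 and 3 genes of the structure lists were called on D4, on D7 and between them, and with no fold threshold 42 and 33 on D4 and D7. Leaving out 1 library gave 4 to 5 members on D4, 2 to 4 on D7 and 0 to 2 between D4 and D7, 18 to 22, 15 to 19 and 0 to 13 structure genes, and 0 to 2 lncRNAs at members on either day. Of these lncRNAs 1 on D4 and 0 on D7 were called with no filter, and 0 on each day lay wholly inside a gene. With the letter as a replicate block, 5, 2 and 2 members and 1 and 0 of these lncRNAs were called. Deviations of same-letter libraries correlated at 0.0103 (control and D4), 0.195 (control and D7) and -0.134 (D4 and D7). The labels do not say what the letters stand for, and these values do not settle it. With the D4 letters exchanged, an alternative chosen after seeing the data, 2 members and 11 structure genes were called between D4 and D7. DESeq2 called 6, 4 and 2 members. The loss of gene calls between D4 and D7 when a D4 library was left out held for all genes tested. With 2 rats per group, Cntn1, Cntn2, Tnr and Hapln2 rest on few fragments.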
